A study of Mus musculus with 11 samples.

Results

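A set of 6 genes from the program that equips γδ T cells to make interleukin 17 was followed here: Sox13, Sox4, Blk, Maf, Etv5 and 5830411N06Rik. They were chosen by name, with earlier results of these data known. Among the 53402 gene identifiers shared by both count tables, 6 of 6 were listed, as among the 10531 genes shared by both normalised tables. The series measured RNA of sorted mouse thymocytes lacking surface CD24 and TCRβ, and asked how an altered Bcl11b protein, set beside its relative Bcl11a, affects these cells. The first 3 groups came from the thymus at postnatal day 0: Bcl11b +/+, Bcl11b +/N440K (1 allele coding for the N440K protein) and Bcl11b D/N440K (the same allele over one written D, which the labels do not define), with 2 libraries each. The other groups came from postnatal day 7: Tcf7 +/+ with 2 libraries and Tcf7 F/F:Vav1-Cre with 3, a floxed Tcf7 gene with a Cre recombinase that the Vav1 promoter drives in blood cells. Both N440K groups were compared with the same 2 Bcl11b +/+ libraries, so those comparisons are not independent. Nothing in the labels says that libraries came from separate animals, and p-values measure the spread between these libraries, which may be technical.

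Most T cells carry the αβ receptor and choose their effector type after leaving the thymus, whereas γδ T cells are largely committed there to interleukin 17 or interferon gamma. The interleukin 17 type arises around birth from immature cells and rests on a set of transcription factors. Sox4 and Sox13 are DNA-binding factors of the HMG family that act early in it, and Maf and Etv5 are factors of the bZIP and ETS families. Blk is a Src family kinase first described in B cells and also needed for these γδ cells. The gene 5830411N06Rik, listed by RefSeq with the synonym Scart2, codes for a scavenger receptor cysteine-rich surface protein found on them. Tcf7 codes for TCF1, an HMG factor of early T cells to which Sox13 can bind.

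In GENCODE M21 on GRCm38, Sox13 (ENSMUSG00000070643) lies on chromosome 1 from 133382303 to 133424377 and Sox4 (ENSMUSG00000076431) on chromosome 13 from 28948919 to 28953713. Blk (ENSMUSG00000014453) spans 63372836 to 63417037 on chromosome 14, and Maf (ENSMUSG00000055435) 115682942 to 115707794 on chromosome 8. Etv5 (ENSMUSG00000013089) spans 22381309 to 22439719 on chromosome 16. These 5 genes are on the minus strand, and 5830411N06Rik (ENSMUSG00000054672) is on the plus strand of chromosome 7 from 140247284 to 140300736. All are protein-coding, and counts were taken over the gene, without a split by exon or UTR.

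Sequences upstream of the gene starts were read from RefSeq (GRCm38.p6) for the members with a window there. The choice did not depend on how a member changed. The table held windows for 4 of the 6 members, named Sox13, Sox4, Etv5 and 5830411N06Rik, and 3 had a stretch before the annotated transcripts that could be shown. The stretches lie at chr13:28953714-28953949 on the minus strand for Sox4, chr16:22439720-22439820 on the minus strand for Etv5 and chr7:140247051-140247278 on the plus strand for 5830411N06Rik, all on GRCm38. Capitals mark CAGCTG, an E-box, and AGGTCA or its reverse complement TGACCT, a half-site of nuclear receptors.
Sox4: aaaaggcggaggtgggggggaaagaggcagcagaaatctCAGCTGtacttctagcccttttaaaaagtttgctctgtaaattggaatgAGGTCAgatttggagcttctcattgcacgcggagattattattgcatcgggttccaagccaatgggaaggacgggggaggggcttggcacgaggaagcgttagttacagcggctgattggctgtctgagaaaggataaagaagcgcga
Etv5: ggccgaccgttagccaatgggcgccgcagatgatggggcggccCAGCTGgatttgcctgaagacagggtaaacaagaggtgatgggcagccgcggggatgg
5830411N06Rik: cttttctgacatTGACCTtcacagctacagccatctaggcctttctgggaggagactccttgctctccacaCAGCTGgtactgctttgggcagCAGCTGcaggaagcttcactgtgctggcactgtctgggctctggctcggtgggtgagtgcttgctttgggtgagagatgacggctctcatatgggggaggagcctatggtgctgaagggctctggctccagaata
In the 250 bases before the RefSeq start, on both strands, CAGCTG occurred in 3 of the 4 windows and in 12.8% of 27018 RefSeq promoters. AGGTCA occurred in the windows of Sox4 and 5830411N06Rik and in 13.8% of promoters, and CCAAT in those of Sox4 and Etv5 and in 34.5%. The other 5 motifs had no match in the 4 windows. They were the TCF/LEF core CTTTGA, found in 14% of all promoters, and the SOX core AACAAT, found in 9.65%. The BCL11A core TGACCA was found in 11.5% of all promoters, and the RUNX core TGTGGT in 14.2%. A last one, the GATA factor core AGATAA, was found in 10.3%. The marked matches did not overlap each other. These matches describe letters in a window and were not tested as binding sites.

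Levels are normalised read counts (CPM) as the authors made them, and changes are log2 fold changes from edgeR ± SE, called at an adjusted p under 0.05. Libraries held 999381 to 1842717 counts. The allele checks came first. Bcl11b RNA stood at 641 and 506 CPM in Bcl11b +/+, 185 and 225 in +/N440K, then 152 and 204 in D/N440K. Tcf7 RNA stood at 552 and 594 CPM in Tcf7 +/+ but at 847, 658 and 694 in the libraries labelled as Tcf7 F/F:Vav1-Cre, which does not show the loss their label implies. Counts over all exons cannot show whether part of the gene was removed, so every direction drawn from these libraries rests on the label. All 6 Bcl11b libraries held reads of Y-linked genes (177 to 239) and of Xist (351 to 602), so each may hold RNA of both sexes. Both Tcf7 +/+ libraries and replicate 2 of Tcf7 F/F:Vav1-Cre held 555 to 715 Y-linked reads, while replicates 1 and 3 of that group held 0 and 2, with 2091 and 2623 Xist reads.

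Sox13 was the most reduced of the 6 genes in both mutant series. It stood at 541 and 394 CPM in Bcl11b +/+, 22.9 and 14.8 in +/N440K, then 9.42 and 13.2 in D/N440K. Each mutant library was far below each +/+ library, and 4.16% and 2.43% of the +/+ level was left in +/N440K and D/N440K. Sox13 fell by 4.59 ± 0.18 on the log2 scale in +/N440K (adjusted p = 1.11e-21) and by 5.36 ± 0.20 in D/N440K (adjusted p = 2.77e-22). At day 7 it stood at 219 and 258 CPM in Tcf7 +/+ and at 7.28, 6.22 and 3.34 in the libraries labelled as Tcf7 F/F:Vav1-Cre. These groups did not overlap either, and Sox13 fell by 5.44 ± 0.23 (adjusted p = 8.28e-11), to 2.31%. These 3 libraries held 9, 11 and 6 Sox13 reads, and their exact 95% Poisson intervals, which cover counting error alone, reached from 1.23 to 13.8 CPM. In bulk RNA, fewer cells of a type and less RNA per cell cannot be told apart.

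**Figure D1:**
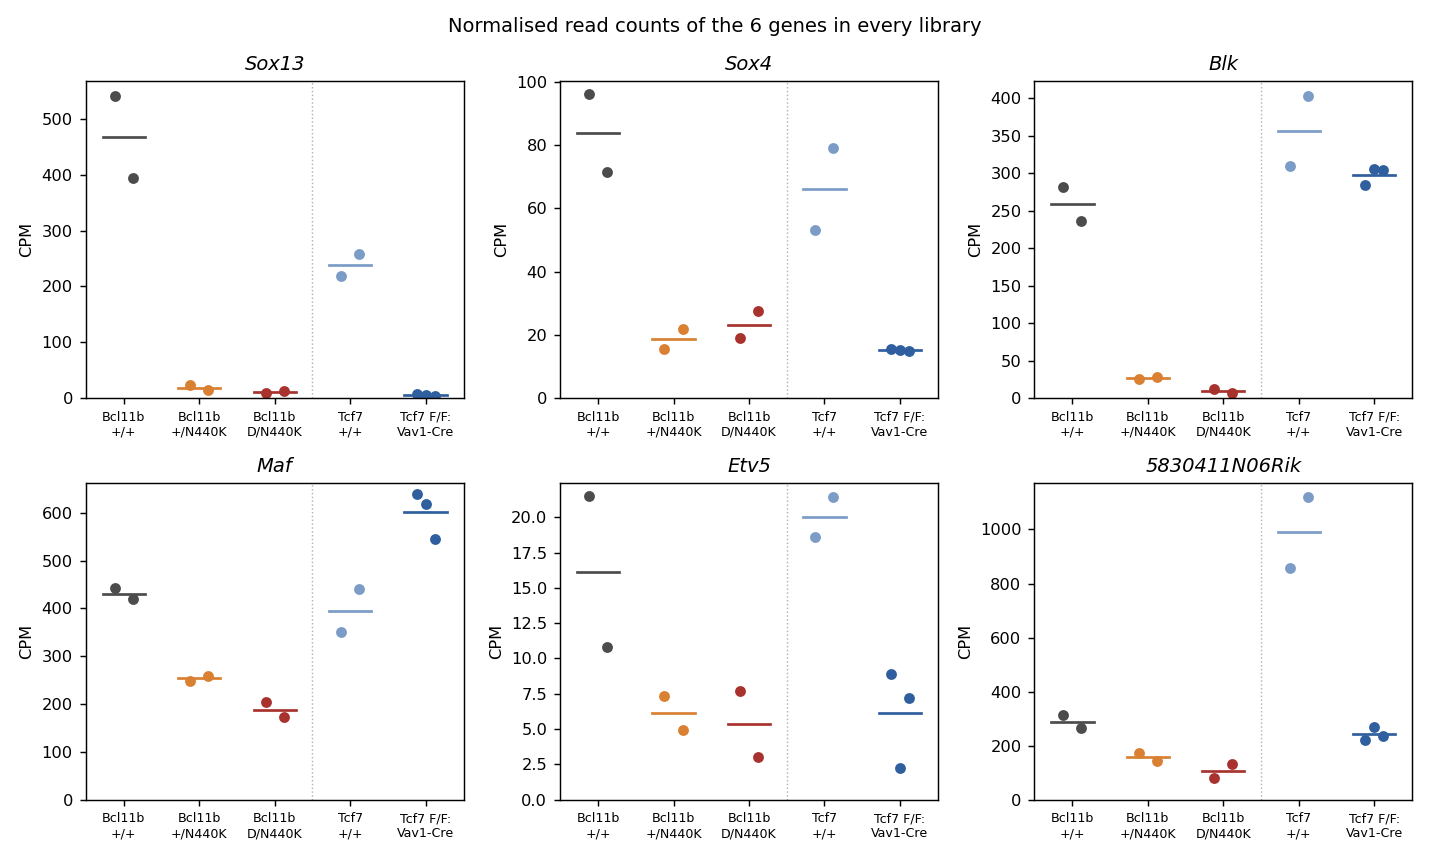
Normalised read counts (CPM, linear axis from 0) of the 6 genes in all 11 libraries, with 1 point per library and a bar at the group mean. Sox13 and Sox4 are low in every mutant library of both tables, Blk is low in the N440K libraries alone, and Maf is lower than +/+ in the N440K groups and higher in the Tcf7 F/F:Vav1-Cre group.

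Sox4 followed the same course at a smaller size. It stood at 96.2 and 71.4 CPM in Bcl11b +/+, 15.5 and 21.7 in +/N440K, then 18.8 and 27.5 in D/N440K. The 2 mutant groups overlapped each other and lay below +/+. Sox4 fell by 2.17 ± 0.24 in +/N440K (adjusted p = 9.49e-09) and by 1.85 ± 0.23 in D/N440K (adjusted p = 7.80e-08). At day 7 it stood at 53.0 and 78.9 CPM in Tcf7 +/+ and at 15.4, 15.3 and 15.0 in Tcf7 F/F:Vav1-Cre as labelled, a fall of 2.11 ± 0.24 (adjusted p = 4.53e-06). Between 22.2% and 27.7% of the own +/+ level was left in the 3 mutant groups. The annotation places Gm26735 on the opposite strand over some Sox4 exon bases, and it had 0 counts in the Bcl11b table and no row in the Tcf7 table.

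Blk parted the mutant series. It stood at 281 and 236 CPM in Bcl11b +/+, 25.3 and 28.6 in +/N440K, then 11.99 and 7.125 in D/N440K. The 3 groups did not overlap, in that order. Blk fell by 3.26 ± 0.16 in +/N440K (adjusted p = 1.77e-18), to 10.5%, and by 4.70 ± 0.21 in D/N440K (adjusted p = 1.35e-20), to 3.84%. At day 7 the kinase gene stood at 309 and 403 CPM in Tcf7 +/+, and at 284, 305 and 304 in the libraries labelled as Tcf7 F/F:Vav1-Cre. All 3 of these lay below both +/+ libraries, but the difference of -0.26 ± 0.13 was not called (adjusted p = 0.182). It was called without replicate 1 of Tcf7 +/+, at -0.43 (adjusted p = 0.00370).

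Maf was lower in the N440K series and higher in the Tcf7 series. It stood at 443 and 419 CPM in Bcl11b +/+, 249 and 259.6 in +/N440K, then 204 and 173 in D/N440K. No library of one group reached the range of the next. Maf fell by 0.76 ± 0.09 in +/N440K (adjusted p = 7.01e-08), to 59.0%, and by 1.18 ± 0.10 in D/N440K (adjusted p = 3.45e-12), to 44.0%. At day 7 it stood at 351 and 440.2 CPM in Tcf7 +/+ and at 639.7, 619 and 546 in the libraries labelled as Tcf7 F/F:Vav1-Cre, each above both +/+ libraries. There Maf rose by 0.60 ± 0.13 (adjusted p = 0.00254), to 152%.

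Etv5 was the least abundant member, with 3 to 38 reads per library. It stood at 21.5 and 10.8 CPM in Bcl11b +/+, 7.35 and 4.94 in +/N440K, then 7.71 and 3.05 in D/N440K. Both mutant groups lay below +/+. The change of -1.31 ± 0.49 in +/N440K was not called (adjusted p = 0.0814), while Etv5 fell by 1.47 ± 0.51 in D/N440K (adjusted p = 0.0451). The second call was lost without replicate 1 of Bcl11b +/+ (-0.94, adjusted p = 0.536) or replicate 2 of D/N440K (-1.01, adjusted p = 0.349), and without replicate 2 of Bcl11b +/+ the first was gained (-1.77, adjusted p = 0.0456). In the Tcf7 table Etv5 stood at 18.6 and 21.4 CPM in +/+ and 8.90, 2.26 and 7.23 in the libraries labelled as Tcf7 F/F:Vav1-Cre. It fell there by 1.75 ± 0.40 (adjusted p = 0.00350). Of the 50-base stretches of its transcripts, 24.5% also occur in Gm4798, which had 0 counts in all 11 libraries.

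The scavenger receptor gene 5830411N06Rik fell in all 3 mutant groups. It stood at 314 and 265 CPM in Bcl11b +/+, 173 and 142 in +/N440K, then 81.4 and 133 in D/N440K. The groups lay in steps without overlap. It fell by 0.86 ± 0.13 in +/N440K (adjusted p = 4.07e-06; DESeq2 did not call it, adjusted p = 0.105) and by 1.45 ± 0.14 in D/N440K (adjusted p = 2.17e-10). At day 7 the gene stood at 859 and 1121 CPM in Tcf7 +/+ and at 222, 268 and 236 in the libraries labelled as Tcf7 F/F:Vav1-Cre. That fall of 2.03 ± 0.13 (adjusted p = 7.41e-09) left 24.5%.

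The members were chosen with earlier results of these data known, so their counts beside the shares of all genes are descriptions and not a test. Counted together, 5 of 6 members were called lower in +/N440K, where 5.3% of the 10910 genes tested were lower and 4.79% higher. In D/N440K it was 6 of 6, against 6.31% lower and 6.1% higher among all genes. The same 5 members were called lower in both, against 3.96% of all genes. In Tcf7 F/F:Vav1-Cre as labelled, 4 of 6 were lower and 1 was higher, against 11.1% and 12% of the 12366 genes tested. Mutant libraries all below all +/+ libraries were seen for 6, 6 and 5 of the members in these comparisons, and for 23.8%, 25.7% and 24.1% of all genes. The members' median log2 change was -1.74, -1.66 and -1.89 in these comparisons, beside 0.00, 0.00 and -0.01 over all genes tested. All 6 members passed the filter on low counts in both tables. In the Bcl11b table Etv5 passed through the +/+ libraries alone, where it was highest, so its place in these counts is not independent of the filter. D/N440K and +/N440K were also compared directly, where 0.247% of all genes were called lower and 0.284% higher. 1 member was: Blk fell by 1.45 ± 0.34 (adjusted p = 0.0312). That call was lost with either D/N440K library or replicate 2 of +/N440K left out, where the adjusted p was 0.0700 to 0.351. The other members gave -0.42 ± 0.11 for Maf (adjusted p = 0.0514), -0.59 ± 0.16 for 5830411N06Rik (adjusted p = 0.0698), -0.78 ± 0.41 for Sox13 (adjusted p = 0.670), 0.31 ± 0.32 for Sox4 (adjusted p = 0.919) and -0.16 ± 0.62 for Etv5 (adjusted p = 0.985).

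**Figure D2:**
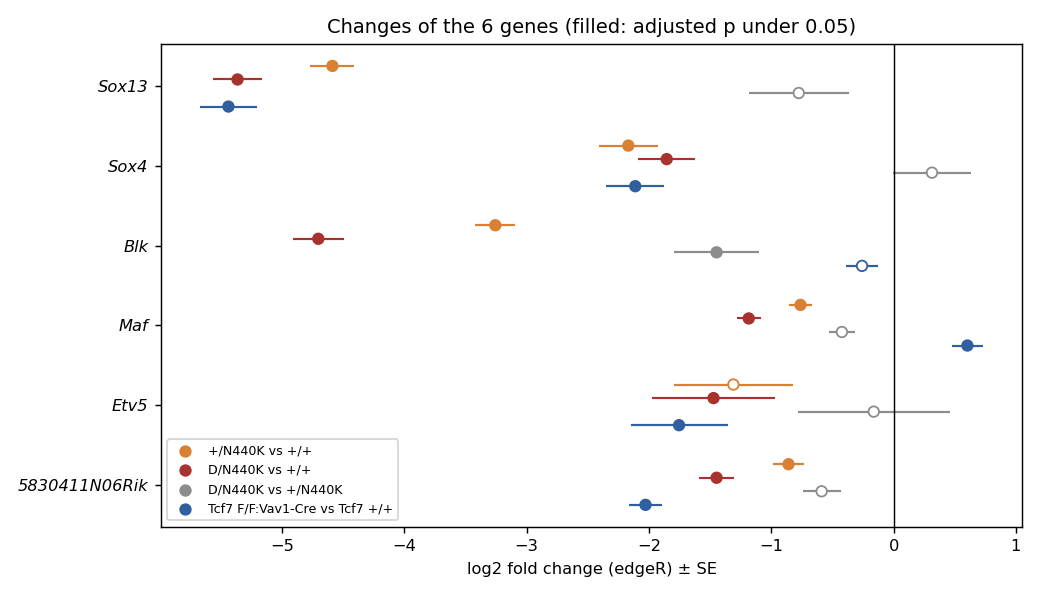
Log2 fold changes of the 6 genes (edgeR, bars ± SE) in the 4 comparisons, with filled points called at an adjusted p under 0.05. The Sox13, Sox4 and Etv5 points of the Tcf7 comparison lie near those of D/N440K, while Blk (-0.26 against -4.70) and Maf (0.60 against -1.18) lie apart.

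Whether the mutants differed in effect was tested directly, as the D/N440K change minus the change in the libraries labelled as Tcf7 F/F:Vav1-Cre, in a model of all 11 libraries. Of 12249 genes, 5.83% were called lower and 5.66% higher, and 2 of the 6 members were called, both lower. For Blk the difference was -4.45 ± 0.28 (adjusted p = 2.18e-11) and for Maf -1.79 ± 0.17 (adjusted p = 2.72e-08). The others were not called: 5830411N06Rik at 0.58 ± 0.23 (adjusted p = 0.101), Sox4 at 0.25 ± 0.37 (adjusted p = 0.731), Etv5 at 0.26 ± 0.72 (adjusted p = 0.873) and Sox13 at 0.06 ± 0.46 (adjusted p = 0.949). The SEs of Sox13 and Etv5 leave room for sizeable differences. Age, allele, sequencing table and the mix of sexes differ together between these series and cannot be told apart. The model held no term for sex.

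The sexes were unevenly spread in the Tcf7 table, so the comparison was run with sex as a term. Both +/+ libraries held Y-linked reads, so in that run the genotype change rested on replicate 2 of Tcf7 F/F:Vav1-Cre alone. Its values were -5.24 for Sox13, -2.11 for Sox4, -1.89 for 5830411N06Rik, -3.10 for Etv5 and 0.65 for Maf. Replicate 2 of Tcf7 F/F:Vav1-Cre, the one library of its group with Y-linked reads in number, had 4 Etv5 reads. With the 3 libraries that held Y-linked reads alone, edgeR called 0 of 12837 genes, 1484 had an unadjusted p under 0.05, and the values were -5.23 for Sox13, -2.09 for Sox4, -1.87 for 5830411N06Rik and 0.66 for Maf.

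Levels between genes were compared per kilobase of exon, as CPM per kb. At day 0 in Bcl11b +/+, Sox13 led at 108.5 ± 24.1 (SD, n = 2), followed by Blk at 95.84 ± 11.96, and the ranges of this pair overlapped. Maf and 5830411N06Rik came next, both at 52.3, with ± 2.03 and ± 6.29. Sox4 at 17.5 ± 3.66 and Etv5 at 3.93 ± 1.84 CPM per kb were below all of these. In D/N440K the order was changed: Maf (22.9 ± 2.64) and 5830411N06Rik (19.4 ± 6.64) led with overlapping ranges, and Sox4 (4.83 ± 1.27), Blk (3.54 ± 1.28) and Sox13 (2.63 ± 0.63) followed, each overlapping its neighbour in that order. Sox13 and Blk, the 2 highest in +/+, were thus below Maf and 5830411N06Rik in every D/N440K library.

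At day 7 in Tcf7 +/+, 5830411N06Rik led at 178.9 ± 33.5 CPM per kb (SD, n = 2), before Blk at 132 ± 24.5, with ranges that did not overlap. Sox13 at 55.3 ± 6.48 and Maf at 48.01 ± 7.651 overlapped, and Sox4 (13.8 ± 3.83) and Etv5 (4.88 ± 0.49) were lowest. In the libraries labelled as Tcf7 F/F:Vav1-Cre, Blk led at 110.3 ± 4.42 (SD, n = 3), with Maf at 73.0 ± 5.99 and 5830411N06Rik at 43.8 ± 4.20. Sox4 (3.17 ± 0.04), Etv5 (1.49 ± 0.84) and Sox13 (1.30 ± 0.47) were lowest, the last pair overlapping. The tables were normalised separately and differ in age, so no level was tested between them.

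**Figure D3:**
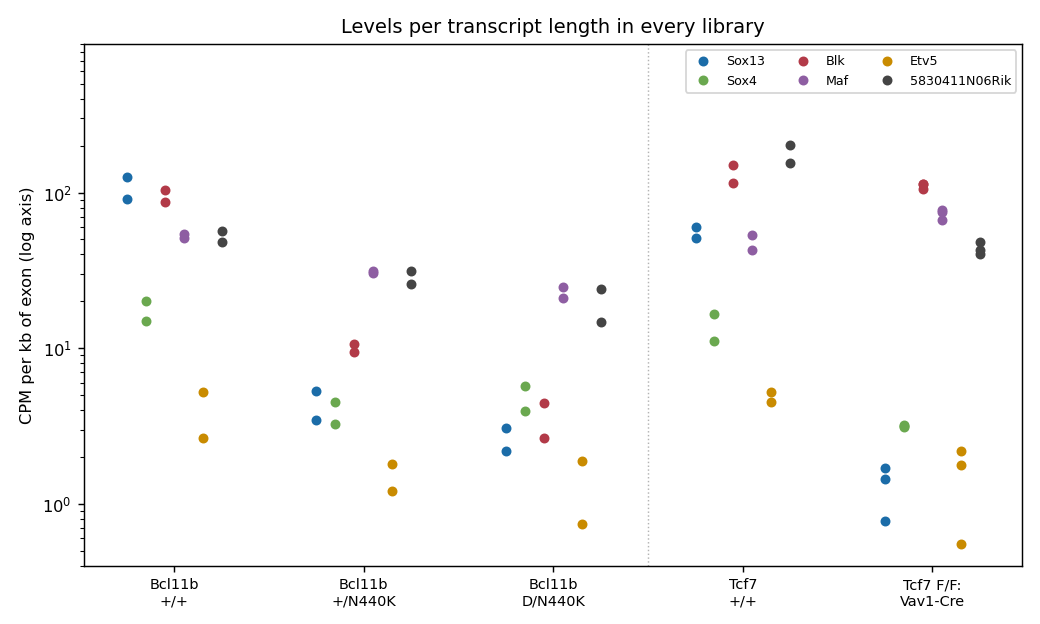
CPM per kilobase of exon (log axis) of the 6 genes in every library, 1 point per library, grouped by genotype. Sox13 goes from the top rank at 108.5 in Bcl11b +/+ to 2.63 in D/N440K, while Blk stays near 110.3 in the libraries labelled as Tcf7 F/F:Vav1-Cre, where Sox13 is at 1.30.

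Other genes of interleukin 17-type γδ cells formed a list of 23. In +/N440K, 8 of the 20 tested were lower and 2 higher, with a median log2 change of -0.08. In D/N440K 8 were lower and 3 higher, with a median of -0.20. Among all genes tested, 5.3% were lower and 4.79% higher in +/N440K, and 6.31% and 6.1% in D/N440K. The list was chosen with earlier results of these data known. The lower ones included the cytokine receptor genes Il1r1, Il17re and Il23r, the chemokine receptor Ccr6, and the factors Runx1, Zbtb16 and Tcf12. Il1r1, the interleukin 1 receptor, fell by 1.77 ± 0.18 in +/N440K and 2.40 ± 0.20 in D/N440K, and Il23r, part of the interleukin 23 receptor, by 1.46 ± 0.28 and 2.93 ± 0.35. Higher in both were Ahr, a ligand-sensing factor, at 0.45 ± 0.10 and 0.51 ± 0.10, and the chemokine receptor Ccr2, at 0.65 ± 0.15 and 0.96 ± 0.15. The cytokine gene Il17a, looked up after its values were seen, had 7 and 14 reads in Bcl11b +/+ and 0 in all 4 N440K libraries, where the exact 95% upper limit was 3.01 to 3.76 CPM. It did not pass the filter in that table.

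The same list was read in the Tcf7 table. Of 22 tested, 13 were higher and 4 lower in the libraries labelled as Tcf7 F/F:Vav1-Cre, with a median of 0.72. Among all genes tested there, 12% were higher and 11.1% lower. Ccr6 rose by 1.79 ± 0.14, Tmem176a, which codes for a membrane protein, by 1.72 ± 0.14, Ahr by 1.38 ± 0.12, Il17re by 1.19 ± 0.14 and Il1r1 by 1.17 ± 0.16. The lower genes were Zbtb16, the PLZF factor of innate-like T cells, which fell by 1.99 ± 0.17, Tcf12 by 0.65 ± 0.12, and the cytokine genes Il17a by 0.89 ± 0.24 and Il17f by 0.69 ± 0.20. The run with sex as a term rested on a single mutant library, so its calls are not counted for this list. In the test of the difference between the mutants, 13 of the 22 were lower in the D/N440K direction, 2 higher and 7 not called. The shares of all genes in that test were 5.83% lower and 5.66% higher. Il1r1 gave -3.57 ± 0.28 (adjusted p = 9.49e-10), beside -4.45 for Blk and -1.79 for Maf.

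**Figure D4:**
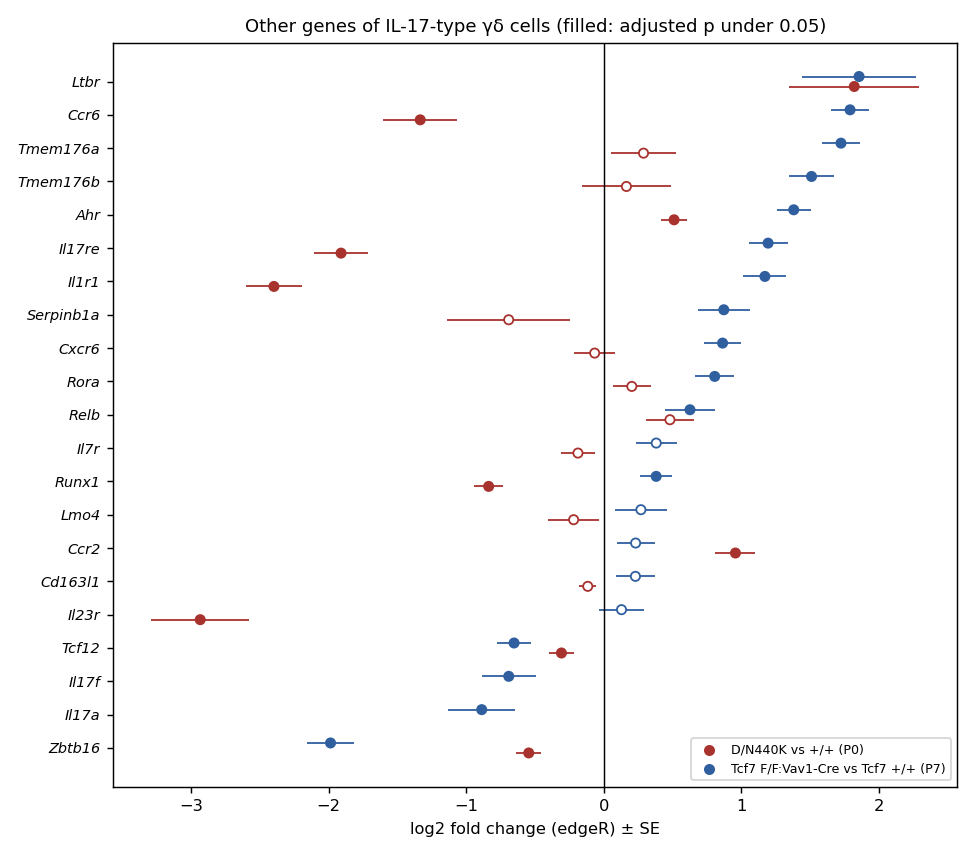
Log2 fold changes (edgeR, bars ± SE) of other interleukin 17-type genes tested in the Tcf7 table, in D/N440K against +/+ at day 0 and in the libraries labelled as Tcf7 F/F:Vav1-Cre against Tcf7 +/+ at day 7, ordered by the second, with filled points called at an adjusted p under 0.05. Il1r1, Il17re and Ccr6 lie below 0 in D/N440K and above 0 in the Tcf7 comparison, and Zbtb16 lies below 0 in both.

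Genes of interferon gamma-type γδ cells, a list of 10, were mostly higher in the N440K groups. Of 9 tested, 7 were higher and 1 lower in +/N440K and 8 were higher and 1 lower in D/N440K, led by the T-box factors Eomes (2.44 ± 0.22 in D/N440K) and Tbx21 (1.16 ± 0.11), while Cd27, a costimulatory receptor, fell by 0.74 ± 0.12. Eomes, Tbx21, Klrd1 and Klrk1 are also in the list of NK and ILC1 markers. In the libraries labelled as Tcf7 F/F:Vav1-Cre, 0 of 10 were higher and 8 lower, among them the NKG2 receptor gene Klrk1, which fell by 2.28 ± 0.19. Segments of the γδ receptor itself were lower in both series: 5 and 7 of 9 in +/N440K and D/N440K and 6 of 11 in the Tcf7 comparison, where 2 were higher. Beside both lists, 5.3%, 6.31% and 11.1% of all genes tested were lower in these comparisons and 4.79%, 6.1% and 12% higher. Trdc, the constant region of the δ chain, fell by 0.60 ± 0.11, 1.30 ± 0.12 and 1.56 ± 0.14 in the same order. Among N440K changes of variable segments, Tcrg-V6 fell by 2.42 ± 0.45 and 1.31 ± 0.38 and Tcrg-V4 by 2.58 ± 0.52 and 2.74 ± 0.54. Tcrg-V4 had 42 reads in Bcl11b +/+, 7 in +/N440K and 6 in D/N440K. It passed the filter at day 0 through the +/+ libraries, so its place in these counts is not independent of the filter. In the Tcf7 table Tcrg-V4 fell by 3.21 ± 0.38, while Tcrg-V6 gave 0.83 ± 0.54 (adjusted p = 0.293).

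Etv5 is known to respond to signals from the γδ receptor, and 2 short lists covered such signals. Of 7 genes that respond to receptor strength, Cd5 and Id3 were lower in all 3 mutant groups: Cd5 fell by 2.15 ± 0.25, 4.15 ± 0.34 and 2.31 ± 0.23, and Id3, an inhibitor of E proteins, by 0.96 ± 0.16, 1.59 ± 0.18 and 2.67 ± 0.29. Egr2, an early response factor, rose by 1.23 ± 0.40 and 1.91 ± 0.37 in +/N440K and D/N440K, and Nr4a1 rose by 0.80 ± 0.28 in the Tcf7 comparison. Of these 7 genes, 1 was higher and 2 lower in +/N440K, and 2 were higher and 2 lower in D/N440K. In the Tcf7 comparison 1 was higher and 2 lower. Of 7 tested inhibitors of the MAP kinase pathway, 1 was higher and 0 lower in +/N440K, 1 higher and 2 lower in D/N440K, and 1 higher and 3 lower in the Tcf7 comparison. Beside both of these lists, the shares of all genes in that order were 4.79%, 6.1% and 12% higher and 5.3%, 6.31% and 11.1% lower. Spry2 rose by 0.55 ± 0.12 and 0.53 ± 0.12 in the N440K groups and fell by 0.69 ± 0.16 in the libraries labelled as Tcf7 F/F:Vav1-Cre.

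Relatives of each member gave a measure of how far the changes ran through the families. Of 19 Sox genes, 5 passed the filter in the Bcl11b table, and Sox12 was the other one lower there, by 2.19 ± 0.51 and 2.13 ± 0.51 in +/N440K and D/N440K. Sox12 had 41 reads in Bcl11b +/+ and 9 in each N440K group. It passed the filter through the +/+ libraries, so its fall is not independent of the filter. Sox5, a close relative of Sox13, gave -0.43 ± 0.32 and -0.16 ± 0.31 in the N440K groups (not called). In the Tcf7 comparison Sox5 fell by 2.10 ± 0.62, from 6.48 to 1.39 CPM. It passed the filter in that table through the +/+ libraries, where it was highest, so that fall is not independent of the filter. Sox6 was tested at day 0 alone, with -0.28 ± 0.51 and 0.77 ± 0.44, not called. Among 7 Src family kinases tested, Blk was the one lower in the N440K groups. Lyn rose there by 0.64 ± 0.21 and 0.75 ± 0.20 and Fgr by 0.60 ± 0.17 and 0.56 ± 0.17, while Lck, the main kinase of the T cell receptor, gave 0.02 ± 0.09 and 0.01 ± 0.09, Fyn -0.13 ± 0.10 and -0.16 ± 0.10 and Src 0.53 ± 0.25 and 0.67 ± 0.25, none called. In the Tcf7 comparison Src rose by 2.14 ± 0.21, Fyn fell by 0.50 ± 0.12, and Lck (-0.31 ± 0.13), Lyn (0.41 ± 0.15) and Fgr (0.43 ± 0.19) were not called.

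Mafg, a small Maf protein gene, took the directions of Maf: it fell by 0.46 ± 0.16 in D/N440K (adjusted p = 0.0447) and rose by 0.71 ± 0.15 in the Tcf7 comparison, with -0.18 ± 0.15 in +/N440K, not called. Mafk (0.05, 0.08 and 0.30) and Maff (0.35, -0.07 and 0.06) were not called. Etv5 was the one PEA3 family gene of 3 that passed the filter in either table. Among TCF/LEF genes, Lef1 fell by 1.79 ± 0.11, 1.85 ± 0.12 and 1.09 ± 0.15 in the 3 mutant groups, Tcf7 fell by 0.39 ± 0.08 and 0.37 ± 0.08 in the N440K groups, and Tcf7l2 was not called (-0.78, -0.67 and -0.63). Of the scavenger receptor cysteine-rich family, Cd6, a lymphocyte surface receptor, fell by 2.30 ± 0.23, 3.85 ± 0.29 and 4.00 ± 0.25, and Cd5 as given above.

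The nearest relative of 5830411N06Rik on the chromosome did not pass the test in any of these comparisons. Cd163l1, a scavenger receptor gene of γδ cells, lies 16139 bases from it and stood at 2192 and 1970.0 CPM in Bcl11b +/+, 1876 and 1964 in +/N440K, then 1920 and 1913 in D/N440K. Its changes of -0.12 ± 0.06 in each N440K group were not called (adjusted p = 0.305 and 0.268), and neither was 0.23 ± 0.14 in the Tcf7 comparison (adjusted p = 0.267).

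Genes within 200 kb of a member were read for the same changes. Wherever genes lay, 5.3%, 6.31% and 11.1% of all tested were lower in +/N440K, D/N440K and the Tcf7 comparison, and 4.79%, 6.1% and 12% higher. Blk had 4 tested neighbours, of which 3 were lower in +/N440K, 1 in D/N440K and 0 in the Tcf7 comparison. Fam167a, whose gene lies 19357 bases away, stood at 45.0 and 33.2 CPM in Bcl11b +/+, 4.90 and 5.92 in +/N440K, then 5.14 and 3.05 in D/N440K. The N440K libraries all lay below +/+. It fell by 2.82 ± 0.38 (adjusted p = 4.44e-07) and 3.17 ± 0.41 (adjusted p = 9.74e-08). Fam167a passed the filter at day 0 through the +/+ libraries, where it was highest, so these calls are not independent of the filter. In the Tcf7 table it stood at 23.7 and 23.1 CPM in +/+ and 35.6, 27.7 and 26.7 in the libraries labelled as Tcf7 F/F:Vav1-Cre, and 0.34 ± 0.24 was not called (adjusted p = 0.348). The difference between the mutants was -3.52 ± 0.47 for Fam167a (adjusted p = 5.35e-06). Of the 3 farther neighbours of Blk, Mtmr9 fell by 1.17 ± 0.16 and Xkr6 by 1.43 ± 0.36 in +/N440K, against -0.04 ± 0.13 and -0.44 ± 0.31 in D/N440K, not called. Fdft1, 193258 bases away, gave -0.22 ± 0.34 in +/N440K (adjusted p = 0.805). Mtmr9 was higher in D/N440K than in +/N440K, by 1.13 ± 0.16 (adjusted p = 4.59e-05). Sox13 had 4 tested neighbours, of which 0 were called in either N440K comparison and 1, Snrpe, was lower in the Tcf7 comparison (-0.73 ± 0.24). 5830411N06Rik had 5 tested neighbours at day 0. The olfactory receptor gene Olfr524, 41320 bases away, fell by 1.36 ± 0.18 in +/N440K (adjusted p = 4.62e-07) and by 1.76 ± 0.20 in D/N440K (adjusted p = 5.70e-09). Olfr523 rose by 1.87 ± 0.32 in D/N440K (adjusted p = 2.41e-05), and the other 3 were not called in either group. In the Tcf7 comparison 5 of its 10 tested neighbours were higher and 0 lower, with Olfr524 at -0.11 ± 0.23 (adjusted p = 0.777). Etv5 had 1 tested neighbour at day 0 and 2 in the Tcf7 table, with 0 called, while Sox4 and Maf had 0 tested.

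Genes with the most similar profiles were ranked over all 11 libraries by the root mean square difference of log2(CPM + 1) from the own +/+ mean, among 10252 genes. Those nearest Sox13 were Endou, at 0.52, and Arpp21, at 0.69, where the median gene was at 4.04. Endou had a mean of 30.9 CPM in Bcl11b +/+ and 28.5 in Tcf7 +/+ and was at 0 in both +/N440K libraries and all 3 libraries labelled as Tcf7 F/F:Vav1-Cre. Nearest Sox4 were C230085N15Rik (0.45) and the ETS factor gene Ets2 (0.46), with a median of 1.615. Nearest Blk were Pdlim4 (0.51) and its neighbour Fam167a (0.82), with a median of 2.44. Pdlim4 went from 67.5 ± 26.1 CPM in Bcl11b +/+ to 3.83 ± 1.78 in D/N440K (SD, n = 2) and from 14.7 ± 3.19 in Tcf7 +/+ (n = 2) to 11.5 ± 2.77 in Tcf7 F/F:Vav1-Cre as labelled (n = 3). Maf was matched most closely by Klf3, a zinc finger factor gene (0.19), and Gm45606 (0.19), with a median of 0.76. For Etv5 they were Ephb6 (0.41) and Bcl7a (0.44), and for 5830411N06Rik St6gal1 (0.19) and Tcrg-C2 (0.29), with medians of 1.32 and 1.31. Among the members, the smallest distance was that of Sox4 and 5830411N06Rik (0.58) and the largest that of Sox13 and Maf (3.87). These distances share libraries and depth and are descriptions.

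Markers of other cell types that the sort could hold moved with the genotypes. For the counts of called markers below, 5.3%, 6.31% and 11.1% of all genes were lower in +/N440K, D/N440K and the Tcf7 comparison. The shares higher were 4.79%, 6.1% and 12%. Summed over 8 markers of immature αβ thymocytes, the level was 539 to 542 CPM in Bcl11b +/+, 71.0 to 71.1 in +/N440K and 49.7 to 61.1 in D/N440K, and 878 to 886 against 447.5 to 450.6 in the Tcf7 table, with Dntt at 0 in all 3 mutant groups. Cd4, one of these markers, named after its values were seen, was higher in the libraries labelled as Tcf7 F/F:Vav1-Cre, at 336 to 370.4 CPM against 171 to 232 in +/+ (0.80 ± 0.14, adjusted p = 0.000517). The other 7 summed to 654 to 707 CPM in Tcf7 +/+ and 79.2 to 112 in those libraries. The 10 NK and ILC1 markers summed to 716 to 859 CPM in Bcl11b +/+, 1626 to 1678 in +/N440K and 1903 to 1942 in D/N440K, where 9 and 10 of 10 were called higher. In the Tcf7 table they summed to 1017 to 1188 and 720.5 to 835, with 7 of 10 lower and 1 higher. Of these markers, 4 are also in the list of interferon gamma-type γδ cells. The 9 markers of ILC3 and LTi cells, which include Il23r, summed to 592 to 674 CPM in Bcl11b +/+, 337 to 357 in +/N440K and 273 to 299 in D/N440K, and to 597.5 to 628 and 1617 to 1722 in the Tcf7 table. Of 8 tested, 0 were higher and 4 lower in +/N440K, and 2 higher and 5 lower in D/N440K. In the Tcf7 comparison 5 were higher and 0 lower. Of the 9 markers, 3 are also in the list of other interleukin 17-type genes. For Blk, 10 B lineage markers were read. They summed to 35.8 to 44.8 CPM in Bcl11b +/+, 22.9 to 33.6 in +/N440K and 24.4 to 28.3 in D/N440K, with Ms4a1, Pax5 and Igll1 at 0 in all 3 groups. In the Tcf7 table they summed to 216 to 264 against 149 to 175.5. Of 8 tested, 6 were lower and 1, Bank1, was higher (mean 17.5 CPM in +/+ and 71.8 in the mutant group), while Blk was not called. The 8 myeloid markers summed to 183 to 234 CPM in Bcl11b +/+, 269 to 320 in +/N440K and 376 to 410.2 in D/N440K, and to 881 to 1262 against 1572 to 1739 in the Tcf7 table. The 8 progenitor markers summed to 247 to 264, 192 to 211 and 236 to 247.5 CPM at day 0 and to 370.3 to 425 against 675 to 757 at day 7, and 7 ILC2 markers to 225 to 241, 151 to 174 and 106 to 128.5 CPM and to 172 to 184 against 348.5 to 436. Their part in the changes of the 6 genes was not tested.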

How the data were processed

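Whole-number counts per Ensembl gene, 1 column per library, were deposited by the authors without normalisation. The CPM values were deposited by the authors as those counts over the library total times its TMM factor, and 100% gave back whole reads within 0.001. The tools named in the submitters' processing notes are HTSeq 0.11.2, STAR 2.7.3a, fastp 0.20.0, Picard 2.21.1, SAMtools 1.9 and edgeR, on mm10 (GRCm38). The annotation release and the strand of counting are not given in the sources used here. Coordinates and lengths come from GENCODE M21.

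Each count table was filtered with filterByExpr (minimum count 10), TMM-normalised and fitted with edgeR 4.0.16 (quasi-likelihood, 1 coefficient per group, 3 residual degrees of freedom, R 4.3.3). Genes were called at a two-sided Benjamini-Hochberg adjusted p under 0.05 over all genes tested. The SE is the size of the log2 fold change, fitted without a prior count, over the square root of the F statistic. The printed change keeps edgeR's prior count, so the 2 fits can differ for genes with few reads. Alternatives used DESeq2 1.42.0, limma 3.58.1, other normalizations, filters and pseudocounts (1 and 0.25), left-out libraries, fits of only the groups compared, and a replicate block. Recovered reads, sex as a term and libraries with Y-linked reads were added after seeing the data. Tested on simulated data for +/N440K against +/+ over 10910 genes, edgeR recovered 79% of 2-fold and 91% of 4-fold changes, with 5.03% of calls false. For the Tcf7 comparison over 12366 genes the shares were 62%, 88% and 9.09%. The members and lists were chosen with earlier results of these data known. All 6 members are named, with the called genes of the interleukin 17 list by p, every tested family gene, up to 3 called genes of other lists and the 2 nearest profiles. Il17a and the genes neighbouring members are further to that rule. Some genes covered by it are not reported here.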

Additional observations from a re-analysis of the deposited data

Results flagged for a closer look

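The effect of the mutation differed between the N440K and Tcf7 series for 2 of the 6 genes, by a test of the difference itself over 11 libraries. Blk gave a difference of -4.454 on the log2 scale (edgeR adjusted p = 2.18e-11) and Maf one of -1.7917 (edgeR adjusted p = 2.72e-08), both as the D/N440K change minus the change in the libraries labelled as Tcf7 F/F:Vav1-Cre. Every D/N440K library was below every Bcl11b +/+ library for both genes, and all 3 libraries labelled as Tcf7 F/F:Vav1-Cre were above both Tcf7 +/+ libraries for Maf. Age, allele, table and the mix of sexes differ together between the series and cannot be told apart. That test held no term for sex.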

How the results depend on the processing

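Over the 3 comparisons of mutants with their own +/+ and all 6 members, 282 alternative values were computed: 0 changed direction, 12 lost a call and 2 gained one. Of the lost calls, 6 were Etv5 in D/N440K, 1 was 5830411N06Rik in +/N440K with DESeq2, and the other 5 came with Y-linked libraries alone, where the adjusted p was 0.215 to 0.429. Blk and Maf kept their call and direction in all 15 alternatives of the difference between the mutants (-4.91 to -4.14 and -1.96 to -1.66). The cause of the changes below was not tested.

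Genes called in +/N440K numbered 1101, and 357 with DESeq2 (1029 at an unadjusted p under 0.05). In D/N440K they numbered 1353, and 528 with DESeq2. Between D/N440K and +/N440K they numbered 58, and 91 without a filter, 4 with DESeq2 and 37 with the replicate block. In the Tcf7 comparison they numbered 2863, and 1606 without a filter, 0 with Y-linked libraries alone and 1112 with sex as a term. Leaving out each library gave 726 to 945, 924 to 1007, 25 to 63 and 1700 to 4612 genes in the same order. Counts over 1.5 times off came without replicate 1 of Bcl11b +/+ (726), replicates 1 and 2 of D/N440K (25 and 35), replicate 3 of Tcf7 F/F:Vav1-Cre (1700) and replicate 1 of Tcf7 +/+ (4612).

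Members called between D/N440K and +/N440K numbered 1, and 2 with upper-quartile normalization, the stricter filter or limma on CPM with either pseudocount, 3 without a filter or with only the groups compared, and 0 with DESeq2, limma-voom or the replicate block. At an unadjusted p under 0.05 these last gave 2, 3 and 4. Leaving out libraries gave 0 to 1. In the Tcf7 comparison 0 were called with Y-linked libraries alone, beside 5 at an unadjusted p under 0.05. Uncalled values that changed sign when a library was left out were Etv5 between the N440K groups (range -1.01 to 0.30), and in the difference between the mutants Sox13 (-0.23 to 0.31), Sox4 (-0.0578 to 0.51) and Etv5 (-0.59 to 0.81).

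Same-numbered libraries did not deviate together (correlations of -0.08 to 0.02 at day 0 and -0.05 at day 7). That gave no sign of a pairing but cannot exclude one. With the replicate block the Blk call between D/N440K and +/N440K was lost (adjusted p = 0.0532), and no other member's call changed. Depth limits Etv5 most, at 3 to 38 reads a library. A group left with 1 library was taken to have the same spread as the rest of its table.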
